A study of Mus musculus with 24 samples.

Results

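The response described here is that of diabetic mouse macrophages to lipopolysaccharide (LPS) plus interferon-gamma, read across all genes of the table. Its members are the 12 libraries that the labels place in the diabetic phenotype, 6 unstimulated and 6 stimulated, of 24 libraries in the series. The cells were bone marrow-derived macrophages, grown in dishes from the marrow of male C57Bl/6 mice in which diabetes had been induced with streptozotocin, which kills pancreatic beta cells. All 12 libraries share that treatment, the strain and the sex, and the ages of the mice are not given in the sources used here. Differentiation took 7 days with L929 cell-conditioned medium, a source of macrophage growth factor, after which adherent cells were kept. Differentiation, plating and stimulation took place in medium with 5 mmol/L glucose, so the cells were not in diabetic serum when they were stimulated. The sample of each mouse was divided into an unstimulated culture and one given 100 ng/mL LPS with 10 ng/mL interferon-gamma for 6 h. The sample titles name LPS alone, while the protocol and the series' design text name both agents. No library received only 1 of the agents, so the effects of LPS and of interferon-gamma cannot be told apart. The 12 control libraries, from 6 mice without diabetes in the same 2 states, are used only to ask whether the response differed.

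LPS is a component of the outer membrane of Gram-negative bacteria. It is handed by CD14 to TLR4 and MD-2 on the macrophage surface, which signal through MyD88 to NF-kB and AP-1 and through TRIF to IRF3 and type I interferon. Interferon-gamma, made mainly by T cells and NK cells, binds IFNGR1 and IFNGR2 and signals through JAK1 and JAK2 to gamma-activated sites in DNA. Both signals together are the classical stimulus for killing activity in mouse macrophages, with nitric oxide, cytokine release and antigen presentation.

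The libraries held 16754771 to 28021162 reads without stimulation and 23533465 to 29136332 reads with it, and 11710 of the 13568 genes reached at least 1 CPM in at least 6 of the 24 libraries and were tested. CPM are counts scaled to library size, here after the authors' scaling of each library. At 3 reads the level was 0.0835 to 0.153 CPM, so genes near that level were limited by counting error. A gene that is nearly silent in one state entered the test only through the other, and counts over tested genes describe what was measurable. Macrophage markers were high in both states (all 10 listed markers in the table, summed level 17041 to 20217.5 CPM unstimulated and 14486 to 16604 CPM stimulated, led by Lyz2 and Adgre1). Levels below are the lowest, highest and median CPM over 6 libraries. Fold changes are means over 6 mice of the log2 difference of CPM + 1 between the stimulated and unstimulated culture. Adding 1 understates the change of low genes. The SE given is that of limma, which moderates each gene's spread between mice by the spread of the other genes. "Rose" and "fell" mean an adjusted p under 0.05 in limma with Benjamini-Hochberg adjustment over all tested genes. "Over 2-fold" means that limma's treat test placed the change beyond 2-fold at the same threshold. Because RNA was pooled over the cells of a culture, fewer expressing cells and less RNA per cell cannot be told apart.

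Stimulation altered most of what the macrophages expressed. Of 11710 tested genes 10565 passed the threshold (90.2%), with 4119 higher (35.2%) and 6446 lower (55.0%). The over 2-fold test called 3959 genes (33.8%), 1643 upward (14%) and 2316 downward (19.8%). The 6 libraries of one state all lay beyond the 6 of the other for 9480 genes (81.0%), 3666 above (31.3%) and 5814 below (49.6%). Rises reached further than falls: 144 genes rose by at least 5 on the log2 scale and 11 fell by as much. The median log2 fold change over all tested genes was -0.25, between -0.26 and -0.24 in each of the 6 mice.

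**Figure D1:**
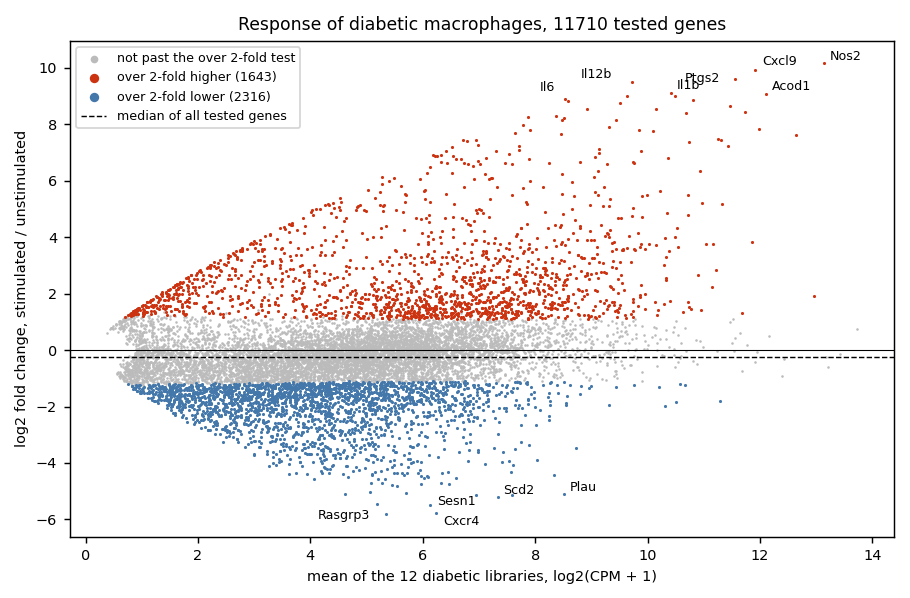
Each point is a tested gene, with its mean level on the horizontal axis and its log2 fold change (stimulated over unstimulated, diabetic mice) on the vertical axis; colours mark the 1643 genes higher and the 2316 genes lower in the over 2-fold test. Rises extend to 10.16 and falls to -5.81.

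The balance of rises and falls depended on the scaling, because the libraries of both states were scaled apart: the authors' scaling factors were 1.26 to 1.29 without and 0.807 to 0.833 with stimulation. With scaling by total reads alone the median shifted by -0.57, and 2376 genes rose and 8749 fell. With median-of-ratios scaling it shifted by 0.26, with 5228 rising and 5236 falling, and with quantile normalization by 0.16, with 4779 rising and 5668 falling. In the over 2-fold test the 3 scalings gave 1079, 1993 and 1677 rises and 4328, 1752 and 1918 falls. Under all 4 scalings 1060 genes were over 2-fold higher and 1483 over 2-fold lower. Beside this, the 100 most abundant genes took 24.1% to 25.2% of reads without and 30.3% to 30.9% with stimulation, and mitochondrial transcripts went from 1.10% to 1.20% of reads to 0.665% to 0.807%. Their part in the scaling was not tested. Small changes of a family are therefore given with the scaling that turns them.

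**Figure D2:**
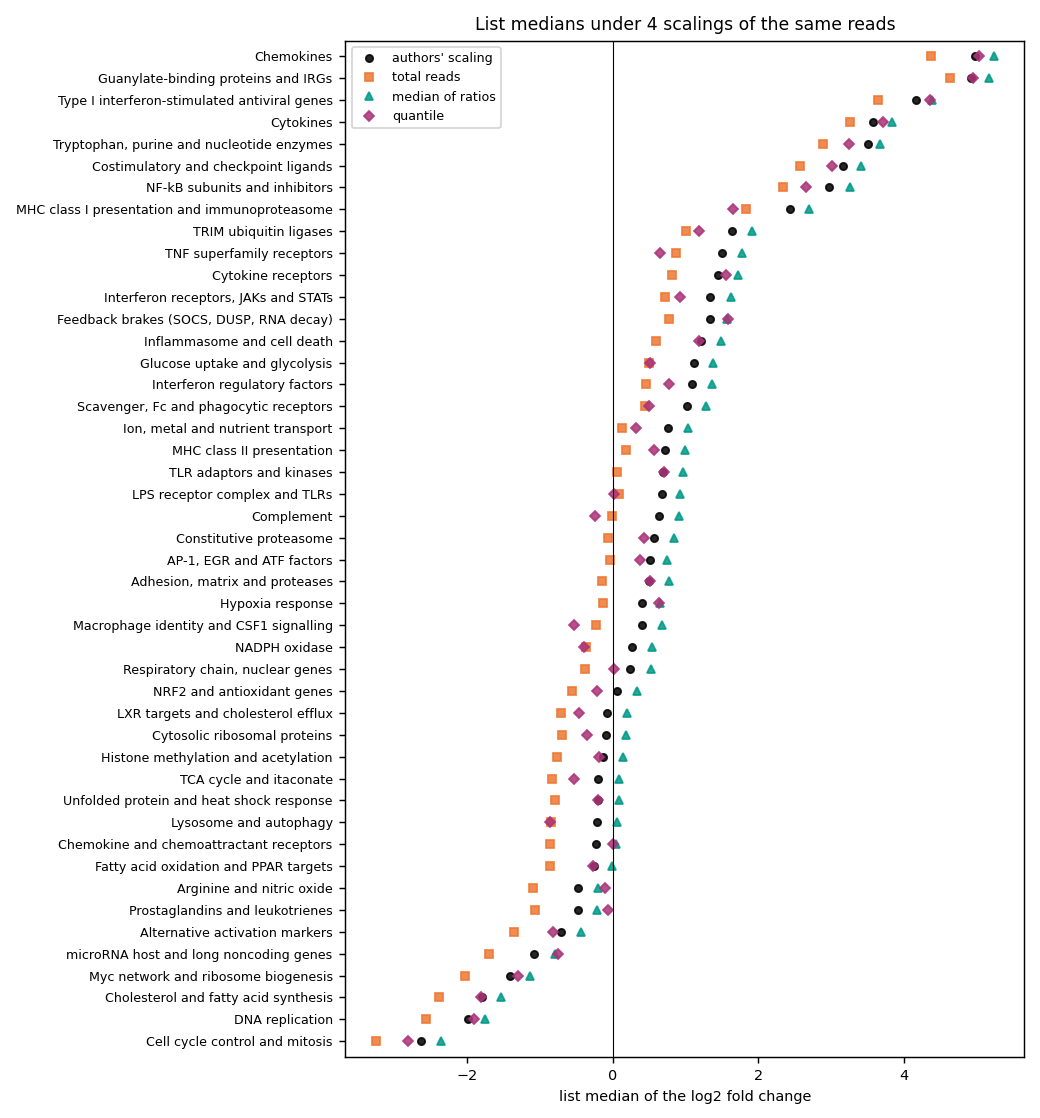
Median log2 fold change of each of the 46 gene lists under the authors' scaling (circles) and 3 other scalings of the same reads (squares, triangles and diamonds). The cell cycle list stays lowest under each, while lists with a median near 0 lie on both sides of it.

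The largest rise was that of Nos2, the inducible nitric oxide synthase (ENSMUSG00000020826, chr11:78920787-78960254 on GRCm38). Its level was 12.5 to 17.6 CPM (median 14.6) in unstimulated and 15949 to 20261 CPM (median 17801) in stimulated libraries. No library of one state came near the other, and Nos2 alone took 1.29% to 1.69% of all reads in the stimulated libraries. The log2 fold change was 10.16 ± 0.08 (limma adjusted p = 1.2e-16). Ptgs2, the inducible cyclooxygenase that makes prostaglandin precursors, lay at 5.54 to 7.67 CPM (median 6.83) in unstimulated and 5407 to 6593 CPM (median 6017) in stimulated libraries. Acod1, which makes itaconate from a citrate cycle intermediate, lay at 14.4 to 16.2 CPM (median 15.4) in unstimulated and 8522 to 9246 CPM (median 8830.0) in stimulated libraries. Saa3, an acute-phase protein of macrophages, went from 11.5 to 14.5 CPM (median 13.2) to 4886 to 6512 CPM (median 5575). For these 3 genes, too, the states were fully separate, with log2 fold changes of 9.62 ± 0.07, 9.08 ± 0.04 and 8.63 ± 0.05 and limma adjusted p of 3.7e-18, 3.8e-22 and 2.7e-21. The remaining genes among the 15 largest rises were the chemokines Cxcl9 and Cxcl10, the cytokines Il12b, Il1b, Il6 and Il27, the GTPases Gbp5 and Iigp1, the signalling inhibitor Socs3, the serpin Serpina3g (8.84) and Ifi205 (9.02), a member of the interferon-inducible Ifi200 family whose near-identical copies may share reads. The values of those in a list follow with their list.

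**Figure D3:**
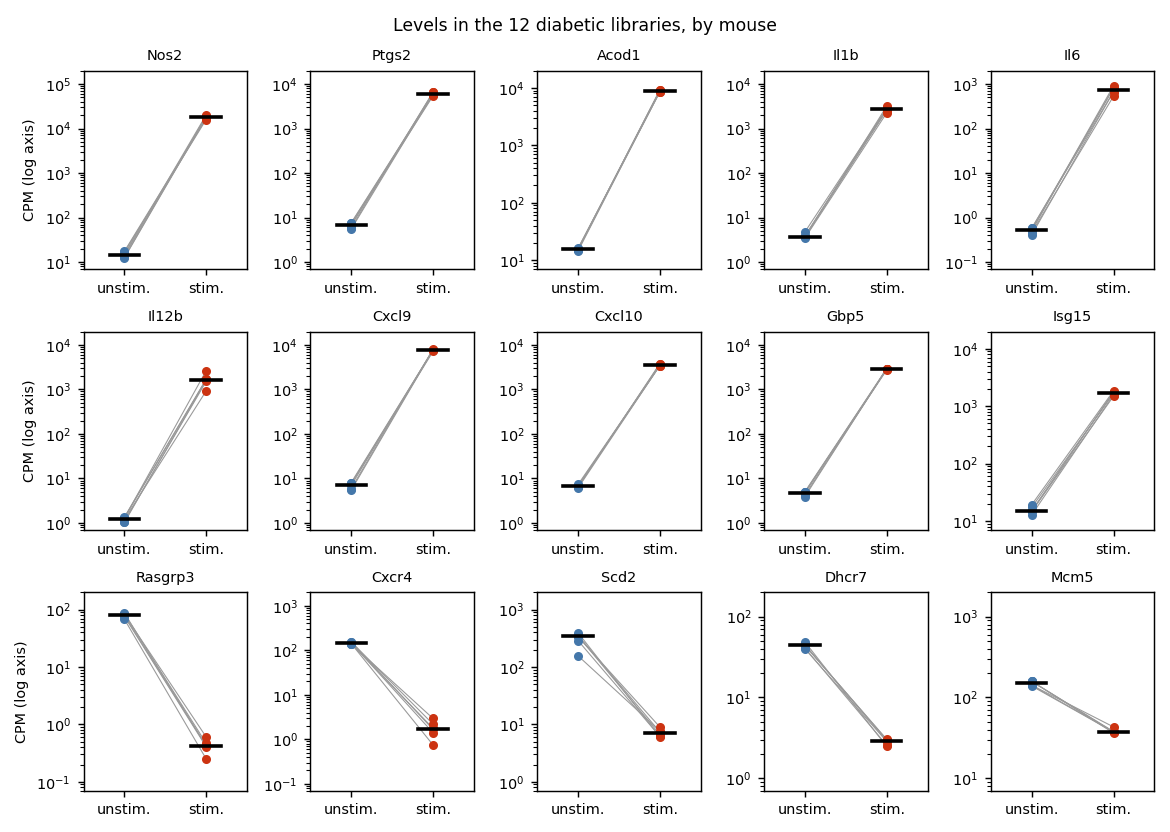
Level of selected genes in each diabetic mouse, in CPM on a log axis; each line joins the unstimulated and stimulated library of 1 mouse, and the bar is the group median. In all 15 panels the states are apart; Nos2 went from a median of 14.6 to one of 17801 CPM and Rasgrp3 from 79.9 to 0.425 CPM.

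The lists that follow group 1056 gene symbols by role, of which 1020 were in the table and 1006 were tested. Of the 46 lists, 30 had a median log2 fold change above 0 under the authors' scaling, 21 with total reads, 37 with median-of-ratios scaling and 26 with quantile normalization. Counts in each list are to be read against the 35.2% of all genes that rose and the 55.0% that fell.

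**Figure D4:**
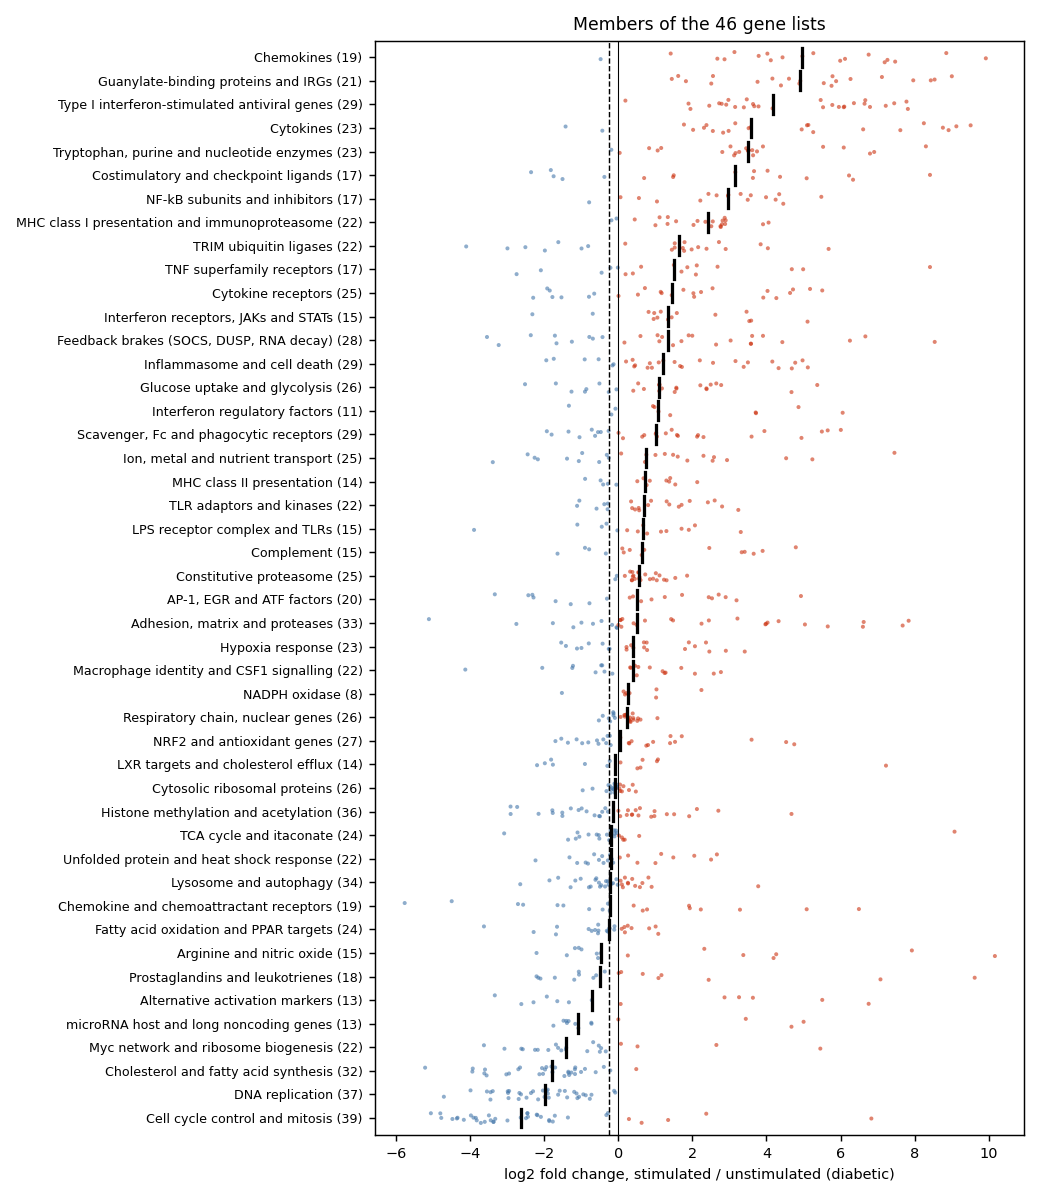
Each point is the log2 fold change of 1 member of a list (mean of 6 diabetic mice), red above and blue below 0, the bar is the median of the list, and the dashed line is the median of all tested genes at -0.25. Numbers beside the names are tested members; chemokines (median 4.97) and guanylate-binding proteins (4.91) stand highest, in the other order with total reads, and the cell cycle list stands lowest (-2.63).

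Among the receptors that sense microbes, several Toll-like receptors rose, while the LPS receptor Tlr4 itself did not. Of 15 tested members 10 rose and 4 fell, and 6 upward and 1 downward were over 2-fold; the median was 0.67. The balance depended on the scaling: 7 rose and 7 fell with total reads (median 0.09) and 6 rose and 6 fell with quantile normalization (median 0.02). Tlr4 was at 93.1 to 109 CPM (median 99.0) in unstimulated and 73.3 to 84.3 CPM (median 80.2) in stimulated libraries. The groups were close but did not overlap, with a log2 fold change of -0.32 ± 0.04 (limma adjusted p = 5.6e-06). With median-of-ratios scaling 10 members of the list rose and only 2 fell (median 0.93). A fall as small as that of Tlr4 may therefore depend on the scaling. Tlr3, a receptor of double-stranded RNA, rose by 3.31, Tlr9, which senses unmethylated DNA, by 2.07, and the lipopeptide receptors Tlr1, Tlr6 and Tlr2 by 1.90, 1.71 and 1.30. Against this direction Tlr13, the mouse receptor of bacterial ribosomal RNA, fell from 439 to 526 CPM (median 493) to 26.6 to 42.1 CPM (median 30.7) (log2 fold change -3.89 ± 0.06, limma adjusted p = 1.1e-15). The flagellin receptor Tlr5 changed by -1.11 and the TLR4 relative Cd180 by -0.45, and both fell, while Ly86, the partner of CD180, did not pass at -0.03. Cd14 rose by 1.15 and the TLR4 partner Ly96 by 0.67. Of 22 tested adaptors and kinases behind these receptors 16 rose and 6 fell, with 9 upward and 1 downward over 2-fold and a median of 0.68. With total reads 11 rose and 9 fell, 5 upward and 3 downward over 2-fold, with a median of 0.06. The kinase Map3k8 (3.24), the adaptor Myd88 (2.80), the TBK1 partner Tank (2.60) and the kinase Ikbke (2.42) led them, with the inhibitory kinase Irak3 at 1.93 and Pik3ap1 at 1.71. Irak1 (-1.11), Tab1 (-1.05), Map3k7 (-0.59), Irak4 (-0.38), Ticam2 (-0.29) and Tirap (-0.28) fell.

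The NF-kB system rose as a whole, subunits and inhibitors together. Of 17 tested members 15 rose and 1 fell, 13 upward and 0 downward over 2-fold, with a median of 2.97. Tnfaip3 (A20), a deubiquitinase that ends NF-kB signalling, was at 38.7 to 49.6 CPM (median 43.2) in unstimulated and 1941 to 2023 CPM (median 1978) in stimulated libraries. Nfkbia, the inhibitor that holds NF-kB in the cytoplasm, was at 60.5 to 70.6 CPM (median 62.6) in unstimulated and 1210.0 to 1259.9 CPM (median 1224) in stimulated libraries. Both groups of libraries were apart for each, with log2 fold changes of 5.48 ± 0.05 and 4.25 ± 0.04 (limma adjusted p = 1.2e-19 and 2.1e-19). The inhibitor relatives Nfkbiz (4.45) and Nfkbie (3.99), Tnip3 (4.34), which binds A20, and the RNase Zc3h12a (3.58) rose too. The subunits Nfkb2 (3.30), Nfkb1 (2.65), Relb (2.43), Rel (2.21) and Rela (1.04) rose by less. Nfkbid did not pass (0.06), and the linear-chain deubiquitinase Otulin fell by 0.79 on the log2 scale.

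A form of the NF-kB decamer, GGGA and TTCC with 2 bases between them on either strand, was looked for in RefSeq's promoters (GRCm38.p6). These matched 9042 of 11708 tested symbols, and the 250 bases before the start they give were searched. A gene may have other starts, so these bases need not lie before all of its transcripts. The decamer was in 1.57% of all these promoters, in 2.88% of those of genes over 2-fold higher and in 1.68% of those over 2-fold lower. In the NF-kB list 3 of 14 promoters held it (21.4%), in the cytokine list 4 of 16 and in the chemokine list 4 of 12 (33.3%). Printed below are 100-base windows, 5′ to 3′ on the gene's strand, with the letters in capitals. They are those of the pair of genes with the largest change in each of these lists whose promoter held the letters. Genes of a chromosome whose sequences are not printed here were passed over in this choice, here and below. A match is a description of these letters and not a binding site shown by these data.
Nfkbia: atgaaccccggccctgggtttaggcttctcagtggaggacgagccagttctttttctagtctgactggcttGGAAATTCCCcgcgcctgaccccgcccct
Nfkb2: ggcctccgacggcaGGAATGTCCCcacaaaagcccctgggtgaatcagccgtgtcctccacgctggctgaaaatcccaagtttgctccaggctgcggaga
Il6: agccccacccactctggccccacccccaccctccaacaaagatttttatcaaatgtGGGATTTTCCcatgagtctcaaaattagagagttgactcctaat
Csf1: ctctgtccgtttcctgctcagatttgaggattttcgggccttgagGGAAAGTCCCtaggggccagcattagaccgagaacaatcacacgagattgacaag
Cxcl10: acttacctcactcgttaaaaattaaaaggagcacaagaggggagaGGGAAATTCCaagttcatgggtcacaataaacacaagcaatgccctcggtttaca
Cxcl2: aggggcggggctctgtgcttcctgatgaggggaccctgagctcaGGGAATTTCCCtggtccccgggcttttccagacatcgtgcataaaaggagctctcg
The windows lie at chr12:55492648-55492747 (- strand) for Nfkbia, chr19:46305445-46305544 (+ strand) for Nfkb2, chr5:30013014-30013113 (+ strand) for Il6, chr3:107760569-107760668 (- strand) for Csf1, chr5:92348994-92349093 (- strand) for Cxcl10 and chr5:90903758-90903857 (+ strand) for Cxcl2, where 2 matches overlap.

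The AP-1, EGR and ATF factors split. Of 20 members 12 rose and 8 fell, 8 upward and 6 downward over 2-fold, with a median of 0.51 that turned to -0.03 with total reads, where 9 rose and 9 fell. Batf (4.93), an AP-1 partner of IRF proteins, Cebpb (3.19), Cebpd (2.90), Junb (2.71) and Fosl2 (2.53) rose. The immediate-early genes Egr2 (-3.33), Egr3 (-2.43), Jun (-1.69), Fos (-1.28), Fosb (-0.78) and Egr1 (-0.31) were lower at 6 h, as were Klf2 (-2.32) and Klf4 (-2.29), which restrain inflammatory genes in macrophages.

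Cytokine genes rose strongly and nearly throughout. Of 23 tested members 21 rose and 2 fell, 21 upward and 1 downward over 2-fold, with a median of 3.57. That median was higher with a pseudocount of 0.25 CPM and lower with one of 5 CPM. Il12b, the p40 subunit of interleukins 12 and 23, was at 1.03 to 1.36 CPM (median 1.25) in unstimulated and 925 to 2641 CPM (median 1656) in stimulated libraries. The spread among stimulated cultures was wide, yet the groups were far apart (log2 fold change 9.51 ± 0.17, limma adjusted p = 3e-09). Il1b, the pyrogenic cytokine cleaved by caspase-1, was at 3.47 to 4.78 CPM (median 3.73) in unstimulated and 2247 to 3185 CPM (median 2764) in stimulated libraries. Il6 was at 0.412 to 0.585 CPM (median 0.515) in unstimulated and 534 to 915 CPM (median 734) in stimulated libraries. Their log2 fold changes were 9.12 ± 0.06 and 8.91 ± 0.08 (limma adjusted p = 9.4e-21 and 2.4e-17), with no overlap. Il27 (8.76), Il1a (8.25), Il1rn (7.61), the interleukin-1 receptor antagonist, Tnfsf10 (6.61), which encodes TRAIL, the anti-inflammatory Il10 (5.26) and Tnf (5.09) followed. Tnf stood at 31.7 to 38.5 CPM (median 35.2) in unstimulated and 1159 to 1338 CPM (median 1234) in stimulated libraries, the groups again apart. Ifnb1, the type I interferon made after TLR4 signals through TRIF, lay at 0 to 0.0462 CPM (median 0) without and 1.55 to 3.06 CPM (median 2.63) with stimulation at 6 h, a low level whose log2 fold change of 1.77 is understated. Tgfb1 fell (-0.43), and so did Il16 (-1.42), a T-cell attractant.

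With 1 added to CPM, the medians of the chemokine genes (4.97) and of the guanylate-binding proteins and related GTPases (4.91) were the highest of the 46 lists under the authors' scaling. With total reads the GTPases stood higher (4.62 against 4.37), as they did with a pseudocount of 0.25 CPM. On the deposited log2 values, which weigh low genes more, the cytokine list also had a higher median than the chemokines. The order of these lists therefore depended on the pseudocount. Chemokine genes rose nearly throughout. Of 19 tested members 18 rose and 1 fell, 18 upward and 0 downward over 2-fold. Cxcl9, which draws CXCR3-bearing T cells and is a classical interferon-gamma target, was at 5.47 to 8.11 CPM (median 7.28) in unstimulated and 7118 to 8005 CPM (median 7702) in stimulated libraries. Cxcl10, a second CXCR3 ligand, was at 6.13 to 7.36 CPM (median 6.68) in unstimulated and 3436 to 3806 CPM (median 3475) in stimulated libraries. The states lay apart by factors that gave log2 fold changes of 9.92 ± 0.07 and 8.85 ± 0.04 (limma adjusted p = 1.1e-18 and 4.4e-22). Ccl5 (7.47), Ccl12 (7.26), the third CXCR3 ligand Cxcl11 (7.19) and Ccl22 (6.76), a CCR4 ligand, came next, with the neutrophil attractants Cxcl2 (4.97), Cxcl3 (3.79) and Cxcl1 (3.13) and the monocyte attractants Ccl7 (6.12) and Ccl2 (4.02) behind. Ccl6 was the one member that fell (-0.48). The receptors for such signals went both ways: of 19 tested 9 rose and 10 fell, with 6 upward and 6 downward over 2-fold and a median of -0.23 that turned to 0.05 with median-of-ratios scaling (9 rose and 8 fell). Cxcr4, the receptor that holds cells in CXCL12-rich marrow, fell from 139 to 156 CPM (median 144) to 0.749 to 2.94 CPM (median 1.72) (log2 fold change -5.77 ± 0.13, limma adjusted p = 4.3e-11). The fractalkine receptor Cx3cr1 fell by 4.50 on the log2 scale, and the complement C5a receptors C5ar2 (-2.71) and C5ar1 (-1.64) and the sphingosine receptor S1pr1 (-2.57) were lower too. The formyl peptide receptors Fpr2 (6.49) and Fpr1 (5.08) and the lymph node homing receptor Ccr7 (3.28) rose.

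Most components of the interferon pathway rose, while the first chain of the interferon-gamma receptor fell. Of 15 tested members 13 rose and 2 fell, 9 upward and 1 downward over 2-fold, with a median of 1.34. Jak2, a kinase bound to IFNGR2, was at 29.6 to 34.6 CPM (median 33.7) in unstimulated and 1138 to 1173 CPM (median 1154) in stimulated libraries. The states did not overlap, and the log2 fold change was 5.11 ± 0.04 (limma adjusted p = 7.4e-20). Stat2 (3.59), Stat3 (3.54) and Stat5a (2.62) rose in parallel. Ifngr1, the ligand-binding chain, fell from 156 to 173 CPM (median 168) to 30.7 to 33.1 CPM (median 32.6), a log2 change of -2.32 ± 0.04 (limma adjusted p = 1.5e-16), while Ifngr2 rose by 1.58. The other member that fell was Stat6 (-0.69), which transmits interleukin-4.

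Of 11 tested interferon regulatory factors and partners 8 rose and 2 fell, 5 upward and 1 downward over 2-fold, with a median of 1.08. Batf2, an interferon-gamma-induced partner of IRF1, was at 2.65 to 4.08 CPM (median 3.26) in unstimulated and 269.9 to 302 CPM (median 284) in stimulated libraries (log2 fold change 6.06 ± 0.05, limma adjusted p = 8.8e-20), with all stimulated libraries above all others. Irf7 (4.86), the amplifier of type I interferon, Irf8 (3.72) and Irf1 (3.71) rose, and so did Ciita (1.40), the master activator of MHC class II genes. Irf4 (-1.33) and Irf3 (-0.19) fell, and Batf3 did not pass (-0.08). The gamma-activated site, read as TTCNNNGAA, was in 7.24% of all promoters searched, in 9.21% of those of genes over 2-fold higher and in 6.93% of those over 2-fold lower. In the list of regulatory factors 4 of 9 promoters held it (44.4%), and among the guanylate-binding proteins and IRGs 6 of 11 (54.5%). The pattern is its own reverse complement, so both strands give the same matches, which stand in capitals in these windows. Chosen in the same way, they are of the pair in each list with the largest change whose promoter held the letters.
Irf8: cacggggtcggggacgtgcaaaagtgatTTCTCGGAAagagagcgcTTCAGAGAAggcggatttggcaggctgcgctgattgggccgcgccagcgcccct
Irf1: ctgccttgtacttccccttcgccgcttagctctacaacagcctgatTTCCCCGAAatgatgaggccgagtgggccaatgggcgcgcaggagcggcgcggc
Gbp5: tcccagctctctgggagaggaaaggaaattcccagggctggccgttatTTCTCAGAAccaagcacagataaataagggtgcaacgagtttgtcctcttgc
Tgtp2: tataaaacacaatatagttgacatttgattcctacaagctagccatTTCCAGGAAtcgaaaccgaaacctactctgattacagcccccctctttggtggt
The windows lie at chr8:120736159-120736258 (+ strand) for Irf8, chr11:53769878-53769977 (+ strand) for Irf1, chr3:142496834-142496933 (+ strand) for Gbp5 and chr11:49064240-49064339 (- strand) for Tgtp2.

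Every tested member of the antiviral interferon-stimulated list rose (29 of 29, of which 1 fell with total reads), 28 of them over 2-fold, with a median of 4.16. Oasl1, an OAS-like protein that restrains IRF7 translation in mice, was at 6.21 to 8.69 CPM (median 6.73) in unstimulated and 1684 to 1910.5 CPM (median 1855) in stimulated libraries. Mx1, a GTPase that blocks influenza virus in resistant animals, was at 6.67 to 10.5 CPM (median 9.30) in unstimulated and 1911 to 2425 CPM (median 2111) in stimulated libraries. Rsad2 (viperin), an antiviral enzyme, was at 22.7 to 34.5 CPM (median 27.4) in unstimulated and 4579.6 to 5875 CPM (median 4919.6) in stimulated libraries. For the 3 genes the stimulated libraries lay wholly above the others, with log2 fold changes of 7.82 ± 0.06, 7.78 ± 0.10 and 7.45 ± 0.05 (limma adjusted p = 1.3e-18, 6.1e-13 and 1.5e-20). Ifit2 (7.22), Cmpk2 (6.79), the ubiquitin-like Isg15 (6.67) and Ifit1 (6.65) followed, and the sensors Zbp1 (5.95), Ifih1 (5.46) and Ddx58 (3.47) rose with them. The cytosolic DNA sensor Mb21d1 (cGAS) changed least (0.19). The core of the interferon-stimulated response element, GAAA repeated after 2 bases on either strand, was in 3.66% of all promoters, in 9.13% of those of genes over 2-fold higher and in 2.01% of those over 2-fold lower. In this list 9 of 20 promoters held it (45.0%), including the genes printed here.
Rsad2: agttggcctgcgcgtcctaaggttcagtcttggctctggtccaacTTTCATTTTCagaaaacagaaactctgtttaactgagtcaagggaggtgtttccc
Isg15: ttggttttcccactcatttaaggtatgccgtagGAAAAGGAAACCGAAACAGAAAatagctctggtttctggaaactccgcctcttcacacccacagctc
The windows lie at chr12:26456518-26456617 (- strand) for Rsad2 and at chr4:156200830-156200929 (- strand) for Isg15, where 3 overlapping matches form 1 run of capitals.

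The GTPases of cell-autonomous defence, guanylate-binding proteins and immunity-related GTPases, which attack the vacuoles of intracellular microbes, all rose over 2-fold (21 of 21, or 20 with total reads), with a median of 4.91. Gbp5 was at 3.92 to 5.06 CPM (median 4.81) in unstimulated and 2731 to 2946 CPM (median 2889) in stimulated libraries. Iigp1 was at 1.45 to 1.85 CPM (median 1.58) in unstimulated and 898 to 1077 CPM (median 924) in stimulated libraries, and Gbp2 at 15.6 to 19.8 CPM (median 19.1) in unstimulated and 6545 to 7022 CPM (median 6784) in stimulated libraries. The groups were fully apart for the 3 genes, with log2 fold changes of 9.002 ± 0.047, 8.54 ± 0.06 and 8.43 ± 0.05 (limma adjusted p = 5.6e-22, 5.1e-21 and 1.3e-21). Gbp4 (7.96), Gbp3 (7.12) and Tgtp2 (6.27) came next. Gbp10 had no read in any unstimulated library and lay at 1.96 to 3.33 CPM (median 2.64) in stimulated ones. Several of these genes stand in clusters of near-identical copies (Gbp6 with Gbp10, Tgtp1 with Tgtp2), and the counting could split reads between copies, so their single values are uncertain.

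Most genes of MHC class I presentation rose. Of 22 members 20 rose and 1 fell, 18 upward and 0 downward over 2-fold, with a median of 2.43. With total reads 19 rose and 3 fell (median 1.83). With quantile normalization 18 rose and 3 fell, 16 upward and 2 downward over 2-fold (median 1.66). Tap1, a chain of the peptide transporter, was at 64.3 to 73.7 CPM (median 67.0) in unstimulated and 1098 to 1183 CPM (median 1139.7) in stimulated libraries (log2 fold change 4.06 ± 0.04, limma adjusted p = 1.4e-19), the states apart. Nlrc5, the activator of class I genes, rose by 3.91, the second transporter chain Tap2 by 2.90 and the proteasome activator Psme2 by 2.88. The immunoproteasome subunits Psmb9 (2.80), Psmb10 (2.77) and Psmb8 (2.14) rose by more than the heavy chain H2-K1 (1.34). The chaperone Calr did not pass (-0.05), and Pdia3 fell (-0.19). H2-Q6 and H2-Q7 are near copies and their values are uncertain. The constitutive proteasome rose slightly, 23 of 25 members with a median of 0.56, and only Psma6 (1.86), Psma5 (1.54), Psma4 (1.30), Psma3 (1.23) and Psma2 (1.11) were over 2-fold; with total reads 10 rose and 11 fell and the median turned to -0.07. Psma1 fell (-0.08) and Psmd1 did not pass (-0.04).

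MHC class II genes moved less. Of 14 tested members 9 rose and 4 fell, 5 upward and 0 downward over 2-fold, with a median of 0.72. H2-Ab1 was at 47.4 to 88.7 CPM (median 70.0) in unstimulated and 223 to 345 CPM (median 308) in stimulated libraries and the invariant chain Cd74 at 257 to 525 CPM (median 391) in unstimulated and 785 to 1106 CPM (median 987) in stimulated libraries. Groups did not overlap for H2-Ab1 or Cd74, and the log2 fold changes were 2.13 ± 0.10 and 1.37 ± 0.13 (limma adjusted p = 3.7e-08 and 9e-06), though with quantile normalization Cd74 came to 0.29 and did not pass. The peptide exchange subunits H2-DMa (1.54) and H2-DMb1 (1.30) rose. The regulatory factors Rfxap (-0.90), Nfya (-0.41) and Rfxank (-0.28) and the thiol reductase Ifi30 (-0.48) fell, and the protease Ctss did not pass (-0.05). Costimulatory and checkpoint ligands changed much more: of 17 members 12 rose and 5 fell, 11 upward and 4 downward over 2-fold, with a median of 3.16. Cd40, through which T cells license the macrophage, was at 7.71 to 9.86 CPM (median 8.58) in unstimulated and 3166 to 3468 CPM (median 3273) in stimulated libraries. Its groups were far apart (log2 fold change 8.41 ± 0.04, limma adjusted p = 4.4e-22). Cd274, which encodes the T-cell inhibiting ligand PD-L1, rose by 6.34, the CD28 ligand Cd86 by 6.23, Tnfsf4 by 5.08, Cd83 by 4.37 and Icam1 by 4.03. Cd276 (-2.35), Sirpa (-1.82), which binds the "don't eat me" signal CD47, Havcr2 (-1.75), Vsir (-1.51) and Cd200r1 (-0.38) fell.

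Genes of inflammasomes and cell death rose on both the killing and the survival side. Of 29 members 23 rose and 6 fell, 15 upward and 2 downward over 2-fold, with a median of 1.21. Casp4, whose product (caspase-11 in mice) senses cytosolic LPS, was at 17.5 to 20.9 CPM (median 19.4) in unstimulated and 384 to 439.6 CPM (median 406) in stimulated libraries (log2 fold change 4.33 ± 0.04, limma adjusted p = 5.1e-19). Nlrp3 (3.38), the necroptosis effector Mlkl (3.50) and the death receptor Fas (4.68) rose. Cflar (4.16), which blocks caspase-8, and the survival genes Bcl2a1d (5.12), Bcl2a1b (4.97) and Bcl2a1a (4.78) rose as well, the last 3 being near-identical copies whose single values are uncertain. Bcl2 (-1.94), Nlrp1b (-1.74), Nlrp1a (-0.91), Nlrc4 (-0.53), Bcl2l11 (-0.16) and Bax (-0.13) fell.

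Feedback brakes were among the strongly raised genes. Of 28 tested members 19 rose and 9 fell, 15 upward and 6 downward over 2-fold, with a median of 1.33. Socs3, which blocks signalling by the interleukin-6 receptor chain, was at 4.68 to 5.78 CPM (median 5.09) in unstimulated and 2229 to 2317 CPM (median 2283) in stimulated libraries. Socs1, which blocks JAK kinases at the interferon receptors, was at 0.316 to 0.733 CPM (median 0.533) in unstimulated and 108 to 199.7 CPM (median 161) in stimulated libraries. Both were apart between states, at log2 fold changes of 8.54 ± 0.04 and 6.67 ± 0.12 (limma adjusted p = 4.4e-22 and 5.1e-13). The MAP kinase phosphatases Dusp2 (6.25), Dusp1 (4.43) and Dusp16 (3.91) and the mRNA decay factor Zfp36 (3.58) rose. Other members of the same families fell: Rgs2 (-3.54), the ERK phosphatases Dusp6 (-3.23) and Dusp4 (-2.36), Zfp36l1 (-1.71), Zfp36l2 (-1.25), Socs5 (-1.67), Socs6 (-0.78), Rgs1 (-0.69) and Socs4 (-0.43). In the list of TNF family receptors and TRAF adaptors 12 of 17 members rose and 4 fell. Of these 9 upward and 2 downward were over 2-fold, and the median was 1.50. The rises were led after Cd40 by the adaptor Traf1 (4.99) and by Fas. The receptors Tnfrsf21 (-2.75), Tnfrsf26 (-2.09) and Tnfrsf13b (-0.45) and the adaptor Traf5 (-0.21) were lower. The RANK gene Tnfrsf11a, at -0.01, did not pass.

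Receptors for interleukins and related cytokines shifted in kind. Of 25 tested members 17 rose and 7 fell, 15 upward and 5 downward over 2-fold, with a median of 1.44. Il4ra was at 70.7 to 73.0 CPM (median 72.2) in unstimulated and 3083 to 3540.4 CPM (median 3357) in stimulated libraries and Il2ra, the high-affinity interleukin-2 receptor chain, at 0 to 0.0951 CPM (median 0.0567) in unstimulated and 27.2 to 44.7 CPM (median 38.8) in stimulated libraries. For these the states were separate (log2 fold changes 5.50 ± 0.04 and 5.18 ± 0.08, limma adjusted p = 2e-20 and 7.9e-17). The interleukin-18 decoy Il18bp (4.72), Il15ra (4.64), Il12rb1 (4.27) and Il13ra1 (4.03) rose. The receptor chains Lifr (-2.30), Tgfbr1 (-1.92), Il6st (-1.85), Tgfbr2 (-1.78), Il6ra (-1.53), Il7r (-0.79) and Il27ra (-0.65) fell, and Il10rb did not pass (0.01). TRIM ubiquitin ligases rose in 15 of 22 members and fell in 7, 14 upward and 5 downward over 2-fold, with a median of 1.63. Trim30b (5.68), Trim30d (4.04) and Trim30a (3.84), neighbouring copies that may share reads, led the rises, and Trim47 (-4.11), Trim59 (-2.99), Trim37 (-2.51), Trim65 (-1.98), Trim28 (-1.62), Trim27 (-0.99) and Trim8 (-0.81) fell.

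Genes around arginine and nitric oxide went both ways, with large rises of a few members. Of 15 tested members 7 rose and 8 fell, 6 upward and 2 downward over 2-fold, with a median of -0.47 (between -1.09 and -0.20 over the scalings). Slc7a2, the arginine transporter, was at 3.37 to 5.37 CPM (median 4.27) in unstimulated and 977 to 1555 CPM (median 1295) in stimulated libraries. Ass1, which recycles citrulline to arginine, was at 3.53 to 5.25 CPM (median 3.82) in unstimulated and 77.5 to 108 CPM (median 96.3) in stimulated libraries. No libraries of the states overlapped for either (log2 fold changes 7.92 ± 0.05 and 4.26 ± 0.06, limma adjusted p = 2.7e-21 and 2.5e-17). Gch1, which makes the cofactor tetrahydrobiopterin, rose by 3.37 and the mitochondrial arginase Arg2 by 4.19, while the later cofactor enzymes Spr (-1.39) and Pts (-0.58), the spermidine synthase Srm (-2.21), Slc7a1 (-1.17) and Asl (-0.47) fell. Arg1 was below the minimum level. Enzymes of tryptophan, NAD and purine turnover rose in 21 of 23 tested members and fell in none, 19 over 2-fold, with a median of 3.50, while with total reads 2 fell. Upp1, uridine phosphorylase, was at 0.942 to 1.23 CPM (median 1.13) in unstimulated and 643 to 685 CPM (median 657) in stimulated libraries, a separation of the states by 8.30 ± 0.04 (limma adjusted p = 4.4e-22). The NADase Cd38 (6.91), the mitochondrial nucleotide kinase Cmpk2 (6.79), the adenosine receptors Adora2a (6.08) and Adora2b (5.53) and Parp12 (3.90) led the rest, and Ada (0.04) and Afmid (-0.19) did not pass.

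The NADPH oxidase, the source of the respiratory burst, rose mainly in its catalytic subunit: Cybb was at 698 to 861 CPM (median 809) in unstimulated and 3564 to 3848 CPM (median 3734) in stimulated libraries (log2 fold change 2.24 ± 0.05, limma adjusted p = 1.1e-15). Of 8 members 7 rose and 1 fell, with a median of 0.26 that turned to -0.37 with total reads (3 rose and 5 fell) and -0.40 with quantile normalization (2 rose and 5 fell). Rac2 (1.03), Ncf1 (1.02) and Cyba (0.22) rose, and the proton channel Hvcn1 fell (-1.52); with quantile normalization Ncf1 and Cyba were below 0, Cyba also with total reads. Antioxidant genes were divided: of 27 members 13 rose and 12 fell, 7 upward and 3 downward over 2-fold, with a median of 0.05 that was -0.56 with total reads (10 rose and 17 fell) and -0.21 with quantile normalization (10 rose and 15 fell). Sod2, the mitochondrial superoxide dismutase, was at 55.8 to 63.8 CPM (median 59.5) in unstimulated and 1525 to 1702 CPM (median 1632) in stimulated libraries. The cystine carrier Slc7a11 was at 4.01 to 5.55 CPM (median 4.43) in unstimulated and 71.6 to 187 CPM (median 135) in stimulated libraries. States were apart for both (log2 fold changes 4.75 ± 0.04 and 4.53 ± 0.12, limma adjusted p = 1.3e-19 and 4e-10). Prdx5 (3.60), Gsr (1.71) and Prdx1 (1.53) rose, while Cat (-1.70), Gclc (-1.54), Gpx1 (-1.36) and the NRF2 target Nqo1 (-1.13) fell, and Gclm (-0.23) and Mgst1 (0.05) did not pass. The antioxidant response element, read as TGACNNNGC on either strand, was in 14.1% of all promoters and in 7 of 23 of this list (30.4%), with these windows for the members with the largest change that held it.
Prdx1: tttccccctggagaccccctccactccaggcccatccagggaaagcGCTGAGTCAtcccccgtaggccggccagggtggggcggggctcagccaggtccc
Txnrd1: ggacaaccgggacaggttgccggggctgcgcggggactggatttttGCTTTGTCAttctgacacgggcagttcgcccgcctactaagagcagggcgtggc
The windows lie at chr4:116685420-116685519 (+ strand) for Prdx1 and chr10:82859068-82859167 (+ strand) for Txnrd1, which changed by 0.94 and rose.

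Genes of glucose uptake and glycolysis rose more often than they fell. The list of 26 rows (25 symbols, with Aldoa under 2 identifiers) had 18 that rose and 7 that fell, 12 upward and 3 downward over 2-fold, with a median of 1.11 (0.50 with total reads). Pfkfb3, which makes the activator of phosphofructokinase, was at 27.3 to 31.7 CPM (median 29.7) in unstimulated and 1212 to 1322 CPM (median 1247) in stimulated libraries (log2 fold change 5.37 ± 0.04, limma adjusted p = 5.5e-20). The transporters Slc2a6 (4.67) and Slc2a1 (2.64), Pfkp (2.78), Hk3 (2.49), Hk2 (2.38) and the lactate exporter Slc16a3 (2.38) rose. Slc2a3 (-2.52), the second Aldoa identifier, Pfkfb4 (-1.69), Pfkm (-1.26), Eno2 (-0.86), Aldoc (-0.51) and Pdk1 (-0.26) fell. Gapdh was listed at only 6.80 CPM unstimulated (median) and has many near-identical pseudogenes, so its value is uncertain. In the list of the TCA cycle and itaconate 5 rose and 14 fell of 24, with a median of -0.20; the share that fell and the median were near those of all tested genes. With total reads 1 rose and 22 fell, and with median-of-ratios scaling 12 rose and 9 fell and the median turned to 0.08. Beside Acod1, Dld (0.56), Sdhd (0.17) and Cs (0.10) were among those that rose. Idh1, the cytosolic isocitrate dehydrogenase, fell from 169.6 to 205 CPM (median 191) to 17.6 to 23.5 CPM (median 22.4) (log2 fold change -3.08 ± 0.06, limma adjusted p = 6e-16), and Aco1 (-1.36), Fh1 (-1.15), Idh2 (-1.10) and Suclg2 (-1.05) fell with it. Of 26 nuclear genes of the respiratory chain 17 rose and 7 fell, none over 2-fold, with a median of 0.24. With total reads 1 rose and 23 fell (median -0.39), 1 downward over 2-fold, and with quantile normalization 12 rose and 11 fell, so no direction is given for them.

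Fatty acid oxidation and PPAR targets fell in 14 and rose in 7 of 24 members, with 4 over 2-fold downward and none upward and a median of -0.26 under the authors' scaling (-0.01 with median-of-ratios scaling). The share that fell and the median were near those of all tested genes. Pparg, the nuclear receptor of fatty acids, went from 39.0 to 45.0 CPM (median 43.5) to 1.84 to 3.42 CPM (median 2.45) (log2 fold change -3.63 ± 0.09, limma adjusted p = 7.7e-14), with Angptl4 (-2.29), Acadm (-1.68) and Hadh (-1.65) also lower. Hypoxia response genes rose in 15 and fell in 8 of 23 tested members, with a median of 0.41 that turned to -0.14 with total reads (9 rose and 11 fell). Hif1a, the oxygen-regulated factor, was at 85.4 to 98.9 CPM (median 93.3) in unstimulated and 910.3 to 1048 CPM (median 1011) in stimulated libraries (log2 fold change 3.41 ± 0.04, limma adjusted p = 4.7e-18), while its relative Epas1 fell (-1.54). Bnip3 (2.90), Ddit4 (2.46), Plod2 (2.37) and Ndrg1 (2.07) rose, and Mxi1 (-1.41), Bnip3l (-1.12), Vegfa (-0.99), Car9 (-0.80) and Egln3 (-0.42) fell. Adm had no read in any unstimulated library and lay at 1.87 to 3.42 CPM (median 2.88) in stimulated ones.

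Cholesterol and fatty acid synthesis fell almost as a whole. Of 32 tested members 31 fell and 1 rose, 24 of them over 2-fold downward, with a median of -1.79 that stayed between -2.38 and -1.53 over the scalings. Scd2, a stearoyl-CoA desaturase, was at 157 to 394 CPM (median 342) in unstimulated and 6.10 to 9.03 CPM (median 7.03) in stimulated libraries. Sqle, squalene epoxidase, was at 102 to 120.1 CPM (median 110.1) in unstimulated and 4.98 to 7.49 CPM (median 6.47) in stimulated libraries, and the cholesterol carrier Stard4 at 68.1 to 85.5 CPM (median 80.5) in unstimulated and 2.68 to 6.02 CPM (median 4.17) in stimulated libraries. Every stimulated library lay below every unstimulated one for the 3 genes, with log2 fold changes of -5.21 ± 0.22, -3.93 ± 0.09 and -3.94 ± 0.10 (limma adjusted p = 8.4e-07, 3.3e-13 and 4.4e-12). Fasn (-3.62), Fads1 (-3.60) and Dhcr7 (-3.56) fell next, and the regulators Srebf2 (-1.17), Scap (-0.90) and Insig1 (-2.03) were lower too. Insig2 was the member that rose (0.48). The sterol element read as ATCAC and CCAC with 1 base between them, on either strand, was in none of the 22 promoters of this list and in 0.144% of all; this concerns those letters in 250 bases only. In the list of LXR targets and cholesterol efflux 6 rose and 7 fell of 14, and the median of -0.09 turned to 0.19 with median-of-ratios scaling (7 rose and 5 fell). Ch25h, which makes the antiviral 25-hydroxycholesterol, was the exception in size, at 1.49 to 2.22 CPM (median 1.74) in unstimulated and 381 to 456 CPM (median 409.5) in stimulated libraries (log2 fold change 7.22 ± 0.05, limma adjusted p = 1.8e-20). Rxra (-2.19), Lipa (-1.98), Nceh1 (-1.81) and Npc1 (-1.77) fell, and Abca1 did not pass (0.06).

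Genes of DNA replication and division were lower after stimulation almost without exception. Of 37 replication genes 35 fell and none rose, 29 over 2-fold, with a median of -1.99, while with median-of-ratios scaling 35 fell and 2 rose. Rrm2, the ribonucleotide reductase subunit that limits deoxynucleotide supply, was at 143 to 172 CPM (median 149) in unstimulated and 3.87 to 5.60 CPM (median 5.06) in stimulated libraries. Uhrf1, which guides DNA methylation to new strands, was at 92.6 to 116 CPM (median 102) in unstimulated and 4.64 to 7.45 CPM (median 5.22) in stimulated libraries. Groups were fully apart (log2 fold changes -4.71 ± 0.06 and -3.99 ± 0.06, limma adjusted p = 1.1e-17 and 2e-17). The helicase subunits Mcm2 (-3.55) and Mcm7 (-3.39), the licensing factor Cdc6 (-3.45) and Dnmt1 (-3.45) fell, and Mcm10 (-0.11) and Rfc3 (-0.08) did not pass. The E2F pattern TTTNNCGC, on either strand, was in 8.56% of all promoters, in 6.57% of those of genes over 2-fold higher, in 9.27% of those over 2-fold lower and in 10 of 30 of this list (33.3%). These windows are those of the members with the largest change that held it.
Uhrf1: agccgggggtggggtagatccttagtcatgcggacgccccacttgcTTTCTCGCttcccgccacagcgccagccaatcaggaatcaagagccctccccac
Dnmt1: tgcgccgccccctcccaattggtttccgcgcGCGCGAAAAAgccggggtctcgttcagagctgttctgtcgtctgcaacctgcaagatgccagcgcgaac
The windows lie at chr17:56303235-56303334 (+ strand) for Uhrf1 and chr9:20952774-20952873 (- strand) for Dnmt1, where 2 overlapping matches stand on the opposite strand.

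The cell cycle list fell in 34 of 39 members, 32 over 2-fold, and had the lowest median of all lists, -2.63. Anln, the scaffold of the contractile ring, was at 92.9 to 109.6 CPM (median 98.9) in unstimulated and 1.60 to 2.50 CPM (median 2.11) in stimulated libraries (log2 fold change -5.06 ± 0.07, limma adjusted p = 5.3e-18), with Bub1b (-4.80), Cenpf (-4.78), Ccna2 (-4.48), Kif11 (-4.36) and Kif20a (-4.34) behind it. The 5 members that rose were Ccnd2, the CDK inhibitors Cdkn1a (2.37) and Cdkn1b (0.29), the pocket protein Rbl1 (1.34) and Ccnd3 (0.63). Ccnd2, a D-type cyclin, was at 6.77 to 10.6 CPM (median 8.23) in unstimulated and 1002 to 1098 CPM (median 1062) in stimulated libraries, wholly apart (log2 fold change 6.83 ± 0.06, limma adjusted p = 4.4e-19). Of the Myc network and ribosome biogenesis 3 rose and 18 fell of 22 tested, 2 upward and 12 downward over 2-fold, with a median of -1.41. Myc itself fell (-2.62), while Mxd1 (5.45), which competes for its partner, and that partner Max (2.65) rose with Mlx (0.52); Mxd4 (-3.63), Mxd3 (-3.07), Dkc1 (-2.58) and Wdr12 (-2.25) fell, and Ubtf did not pass (0.07). Of 26 cytosolic ribosomal proteins 5 rose and 11 fell, none over 2-fold, with a median of -0.09. With total reads 0 rose and 25 fell (median -0.69, 2 downward over 2-fold), with median-of-ratios scaling 18 rose and 2 fell (median 0.19) and with quantile normalization 6 rose and 17 fell, so their direction depended on the scaling. Rpl5 (-0.96) and Rpl3 (-0.70) changed most, and these genes have many processed copies that may share reads.

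Genes of macrophage identity and growth factor signalling went both ways: 13 rose and 9 fell of 22 tested, 7 upward and 4 downward over 2-fold, with a median of 0.39 that turned to -0.23 with total reads (8 rose and 12 fell) and -0.53 with quantile normalization (10 rose and 12 fell). Cebpa, a myeloid lineage factor, went from 74.2 to 91.5 CPM (median 81.6) to 2.58 to 4.94 CPM (median 3.85) (log2 fold change -4.13 ± 0.07, limma adjusted p = 8.3e-17). The M-CSF receptor Csf1r (-1.24), Gas6 (-2.05), Lyz2 (-0.61), Runx1 (-0.46), Cd68 (-0.43), Tyrobp (-0.37) and Itgax (-0.16) fell too. Axl (2.77) and Mertk (2.58), receptors that clear dying cells, Tfec (2.07), Csf2rb (1.70) and Spi1 (1.25) rose.

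Scavenger, Fc and phagocytic receptors rose in 19 of 29 tested members and fell in 9, 13 upward and 3 downward over 2-fold, with a median of 1.02 (0.44 with total reads). Olr1, a receptor of oxidised lipoprotein, was at 0.174 to 0.379 CPM (median 0.292) in unstimulated and 73.0 to 89.8 CPM (median 83.0) in stimulated libraries. Fcgr4, an activating IgG receptor, was at 20.1 to 25.5 CPM (median 23.8) in unstimulated and 996 to 1167 CPM (median 1092) in stimulated libraries. The states did not overlap (log2 fold changes 6.01 ± 0.06 and 5.49 ± 0.05, limma adjusted p = 5.2e-19 and 2.2e-19). The mycobacterial glycolipid receptor Clec4e (5.65), Marco (4.94), the inhibitory Fcgr2b (3.94) and Fcgr1 (3.60) rose. Stab1 (-1.93), Scarb1 (-1.80), Colec12 (-1.34), Trem2 (-1.05), Mrc1 (-0.72), Siglec1 (-0.63), Cd36 (-0.55), Mfge8 (-0.47) and Clec7a (-0.26) fell, and Lilrb4a did not pass (0.01). Complement genes rose in 10 of 15 tested members, with 4 falling and a median of 0.63 that turned to -0.24 with quantile normalization (7 rose and 8 fell) and lay just under 0 with total reads (6 rose and 7 fell). C3, the central component, was at 90.7 to 155 CPM (median 116) in unstimulated and 2888 to 3478 CPM (median 3269) in stimulated libraries (log2 fold change 4.79 ± 0.07, limma adjusted p = 3.6e-16). Factor B, Cfb (3.90), the initiating proteases C1ra (3.65) and C1s1 (3.41), the C1 inhibitor Serping1 (3.33) and C4b (2.46) rose, while the receptors C5ar1 and C3ar1 (-0.79) and the inhibitor Cd59a (-0.90) fell and C1qa did not pass (0.15).

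Markers linked to alternative activation went both ways: 5 rose and 7 fell of 13 tested, 5 upward and 6 downward over 2-fold, with a median of -0.72. The chemokine genes Ccl22 and Ccl24 (2.87), the receptor Il4ra, the ligand Pdcd1lg2 (3.63) and the transglutaminase Tgm2 (3.26) rose, and Egr2, Myc, Klf4, Stab1, Clec10a (-1.65), Irf4 and Mrc1 fell; Fn1 did not pass (0.06). Arg1, Mgl2, Cd163 and Ccl17 were below the minimum level, and Chil3 and Retnla are not analysed here. Lysosome and autophagy genes fell in 18 and rose in 11 of 34 members, with a median of -0.22, and 1 upward and 5 downward were over 2-fold. Under the authors' scaling both shares and the median were near those of all tested genes. With total reads and with quantile normalization 3 rose and 29 fell, with medians of -0.85 and -0.86 and 13 downward over 2-fold in each, while with median-of-ratios scaling 16 rose and 13 fell (median 0.06). Ctsc, which activates granule proteases, stood out at 122 to 141 CPM (median 126) in unstimulated and 1695 to 1799 CPM (median 1776) in stimulated libraries (log2 fold change 3.78 ± 0.04, limma adjusted p = 9.8e-19), while the lysosomal regulator Tfeb (-2.65), Atp6v0a1 (-1.86), Atg7 (-1.62), Gabarapl1 (-1.29) and Ulk1 (-1.16) fell.

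Of 18 tested genes of prostaglandin and leukotriene synthesis 6 rose and 10 fell, near the share of all genes that fell, with a median of -0.48 (-1.07 with total reads, -0.07 with quantile normalization). Beside Ptgs2, Ptges, the inducible prostaglandin E synthase, was at 1.81 to 2.59 CPM (median 1.93) in unstimulated and 364 to 451 CPM (median 424) in stimulated libraries (log2 fold change 7.08 ± 0.05, limma adjusted p = 9.6e-21), and Pla2g4a (2.44), which frees arachidonic acid, rose. Alox5 (-2.21), Lta4h (-1.71), Ltc4s (-1.19) and Alox5ap (-1.07) fell, with the constitutive Ptgs1 (-2.16) and the prostaglandin-degrading Hpgd (-2.10); Ptges2 (0.01) and Ptges3 (0.08) did not pass. Adhesion, matrix and protease genes rose in 19 and fell in 8 of 33 members, 15 upward and 4 downward over 2-fold, with a median of 0.49 that turned to -0.14 with total reads (15 rose and 17 fell). Mmp13, a collagenase, was at 30.9 to 38.6 CPM (median 34.1) in unstimulated and 7133 to 8993 CPM (median 8293) in stimulated libraries. Plau, which encodes urokinase, an activator of plasminogen, was at 639 to 768 CPM (median 701) in unstimulated and 15.6 to 21.7 CPM (median 20.9) in stimulated libraries. In both the states lay apart (log2 fold changes 7.84 ± 0.06 and -5.11 ± 0.05, limma adjusted p = 1.2e-19 and 3.5e-19). Timp1 (6.62), Mmp14 (6.60), Vcam1 (5.65) and Itgal (5.04) rose, and Itgb3 (-2.75), Timp2 (-1.77) and Adam8 (-1.21) fell.

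Iron and metal genes changed on the export and the capture side. The iron exporter Slc40a1 was at 55.9 to 67.3 CPM (median 61.7) in unstimulated and 3.47 to 6.46 CPM (median 5.34) in stimulated libraries (log2 fold change -3.39 ± 0.09, limma adjusted p = 3e-12), below its unstimulated level in all mice, and its inhibitor Hamp rose by 1.26. Of 25 transport members 14 rose and 10 fell, 11 upward and 5 downward over 2-fold, with a median of 0.76 (0.12 with total reads). Lcn2, which binds bacterial iron carriers, was at 0.231 to 0.666 CPM (median 0.309) in unstimulated and 196 to 297 CPM (median 250.2) in stimulated libraries, with the states apart (log2 fold change 7.45 ± 0.10, limma adjusted p = 1.3e-14). The metallothionein Mt2 (5.24), Slc31a2 (2.93) and Slc31a1 (2.58), copper transport genes, and Slc39a14 (2.55) rose. The amino acid transporters Slc38a2 (-2.45) and Slc1a5 (-2.26), the ATP-gated channel P2rx7 (-2.17), Trpm2 (-1.38) and the transferrin receptor Tfrc (-1.07) fell, and Atp7a did not pass (0.08).

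Chromatin enzymes, stress genes and noncoding RNAs had smaller shifts around a few large ones. Of 36 histone-modifying and related enzymes 16 rose and 18 fell, with a median of -0.14 that turned to 0.14 with median-of-ratios scaling (18 rose and 16 fell). Kdm6b, an H3K27 demethylase, was at 4.34 to 6.05 CPM (median 5.36) in unstimulated and 117 to 196 CPM (median 165) in stimulated libraries (log2 fold change 4.67 ± 0.06, limma adjusted p = 2.4e-17). Tet2 (2.70) rose, and Kdm2b (-2.91), Hdac5 (-2.91), Setd7 (-2.73), Dnmt3a (-2.15) and Ezh2 (-1.77) fell, while Eed (0.05) and Suz12 (0.00) did not pass. Of 22 stress response genes 8 rose and 13 fell, with a median of -0.20 (0.08 with median-of-ratios scaling, where 10 rose and 7 fell). Under the authors' scaling these shares and the median were near those of all tested genes. Hspa1a (2.66) and Hspa1b (2.05), near-identical heat shock genes whose split is uncertain, and Ppp1r15a (2.50) rose. The sensor kinase Eif2ak3 fell (-2.24), and Hsp90aa1 did not pass (0.04). Among 13 host and long noncoding genes 3 rose and 9 fell, with a median of -1.08. Mir155hg, the precursor gene of miR-155, was at 0.0462 to 0.140 CPM (median 0.0792) in unstimulated and 28.0 to 40.6 CPM (median 32.8) in stimulated libraries (log2 fold change 5.00 ± 0.08, limma adjusted p = 4e-17), Gm6377 (4.67) and Gm16685 (3.44) rose, the snoRNA hosts Gas5 (-1.39), Snhg5 (-1.34), Snhg12 (-1.41) and Snhg1 (-1.16) fell, and Mir17hg did not pass (0.00). Over all annotated types, 52 of 86 processed pseudogenes rose and 9 fell, with a median of 0.32 that turned to -0.06 with total reads, beside 3859 rising and 6146 falling among 11050 protein-coding genes.

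The largest falls came from genes of several kinds. Rasgrp3, an activator of Ras and Rap GTPases (ENSMUSG00000071042, chr17:75435905-75529043 on GRCm38), was at 68.0 to 87.3 CPM (median 79.9) in unstimulated and 0.251 to 0.606 CPM (median 0.425) in stimulated libraries. Sesn1, a p53-responsive regulator of mTORC1, was at 123 to 146 CPM (median 139.7) in unstimulated and 1.55 to 2.73 CPM (median 2.09) in stimulated libraries, and Tns1, the focal adhesion protein tensin, at 51.4 to 82.8 CPM (median 72.6) in unstimulated and 0.201 to 1.10 CPM (median 0.674) in stimulated libraries. All stimulated libraries lay far below, with log2 fold changes of -5.81 ± 0.06, -5.50 ± 0.05 and -5.44 ± 0.07 (limma adjusted p = 3.5e-19, 2.8e-19 and 7.6e-18). The others among the 15 largest falls, beside Cxcr4, Scd2, Plau, Anln, Bub1b and Cenpf, were the vitamin B6 kinase Pdxk (-5.14), the membrane-bending protein Mtss1 (-5.12), the ubiquitin ligase Rnf144b (-5.11), the spindle protein Aspm (-5.04), the membrane scaffold Efr3b (-4.75) and the glycosyltransferase Gcnt1 (-4.74).

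The promoters of the genes that rose differed in base composition from those that fell. In the 250 bases before the start, the median number of CpG was 16 over all tested genes with a promoter, 13 for genes over 2-fold higher and 17 for genes over 2-fold lower. At most 5 CpG stood in 13.85% of all promoters, in 29.89% of those over 2-fold higher and in 12.57% of those over 2-fold lower. Of the 15 largest rises 12 had a promoter in the table, and 83.33% of these had at most 5 CpG, with a median GC content of 45.0% against 59.6% over all; for the 15 largest falls the values were 16.67% and 63.2%. These shares are a description, with no test.

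Most responses were similar in size among the 6 mice, and some were not. Among genes with a mean of at least 10 CPM the response varied most between mice for Gm42418, Mir6236, Gm15564 and Lars2. In the library of mouse 3 without stimulation these 4 were high, and the within-mouse log2 fold changes of Gm42418 ran over -2.81 to 0.94, of Mir6236 over -1.39 to 1.35, of Gm15564 over -1.37 to 1.35 and of Lars2 over -1.42 to 0.91. Their mean responses were near 0 (0.05, 0.14, 0.20 and -0.04) and none passed. Next came genes whose direction was the same in all mice but whose size was not: the collagen Col4a2 (1.09 to 2.81), Marco (3.85 to 5.59), the desaturase Scd1 (-1.80 to -0.14), the surface antigen Ly6a (3.18 to 4.77), the caveolar protein Cav1 (1.45 to 2.85) and Gdap10 (2.04 to 3.48). Marco was at 24.03 to 96.2 CPM after stimulation, from 0.638 to 1.01 CPM (median 0.893) without it.

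Set against the control mice, the response of diabetic macrophages differed for 3925 genes (33.5%), being higher for 2354 (20.1%) and lower for 1571 (13.4%), in limma on the within-mouse log2 changes of 12 mice. Higher and lower refer to the sign of the difference, so a gene that fell further in diabetic cells counts as lower. The split followed the scaling, with 3288 higher and 1095 lower with total reads and 1782 higher and 2102 lower with median-of-ratios scaling. Within the blocks of columns in which the table stands, each with 3 mice of each phenotype, 2519 and 1959 genes differed. Of the antiviral interferon-stimulated genes 25 of 29 rose more in diabetic cells and none rose less (1 did with median-of-ratios scaling), with a median difference of 0.70 (0.64 to 0.96 over the scalings). This compares changes, and the levels of the list in both phenotypes are not compared here. Irf7 was at 57.2 to 132 CPM (median 82.7) and 2354 to 2695 CPM (median 2506) in the diabetic states and at 261 to 740.3 CPM (median 371) and 3275 to 4036 CPM (median 3329.9) in the control states. The response was 4.86 ± 0.11 in diabetic and 3.17 ± 0.15 in control mice, a difference of 1.69 ± 0.21 (limma adjusted p = 0.00014). Marco was at 0.460 to 1.65 CPM (median 0.714) and 6.18 to 15.1 CPM (median 7.52) in the control states, and its response differed by 2.62 ± 0.35 (limma adjusted p = 0.00019). Hmox1, which degrades heme, was at 487 to 808 CPM (median 646) and 1569 to 1782 CPM (median 1690.3) in the diabetic and 472 to 573 CPM (median 513) and 367 to 581 CPM (median 493) in the control states, so that it rose in diabetic cells and changed by -0.09 ± 0.12 in control cells (difference 1.50 ± 0.17, limma adjusted p = 6.7e-05).

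Hypoxia response genes had 11 of 23 and antioxidant genes 11 of 27 members with a higher response in diabetic cells and none with a lower one. With median-of-ratios scaling 2 hypoxia genes, and with quantile normalization 1 antioxidant gene, were lower. This was not particular to them: the constitutive proteasome had 10 of 25 higher and 0 lower, and 0 lower under each other scaling. The Myc network list had 13 higher and 3 lower of 22, and tryptophan, NAD and purine enzymes 12 higher and 5 lower of 23. Inflammasome and cell death genes had 1 higher and 12 lower of 29, but 4 higher and 7 lower with total reads and 5 higher and 7 lower with quantile normalization. Of genes of cholesterol and fatty acid synthesis 1 was higher and 10 were lower of 32. The other large positive differences were those of the actin-binding Synpo (1.79 ± 0.17), Thbs4 (1.73 ± 0.21), Saa3 (1.70 ± 0.22), the Ifi200 genes Ifi206 (1.69 ± 0.22) and Ifi213 (1.59 ± 0.20), Btbd11 (1.86 ± 0.23), and the AMP deaminase Ampd3 (1.56 ± 0.09). Those below 0 were led by Rilpl1 (-1.71 ± 0.15), the G-protein regulators Rgs1 (-1.55 ± 0.24) and Rgs2 (-1.46 ± 0.20), Kctd12 (-1.51 ± 0.21), the kynurenine hydroxylase Kmo (-1.40 ± 0.15), Trp53i11 (-1.38 ± 0.14), the Arf regulator Asap3 (-1.37 ± 0.16), Apol9a (-1.35 ± 0.15), Egr2 (-1.30 ± 0.34) and the adhesion molecule Sele (-1.20 ± 0.17). Rgs1 was at 124 to 178 CPM (median 166) and 76.3 to 135 CPM (median 99.7) in diabetic and at 172 to 242 CPM (median 195) and 229 to 639 CPM (median 368) in control mice. The response was -0.69 ± 0.09 in diabetic and 0.86 ± 0.17 in control cells. The differences of Saa3, Rgs1 and Egr2 did not pass within the second block of columns alone (1.75, -1.70 and -1.56), and on the deposited log2 values, which weigh low genes more, those of Trp53i11 (-0.23) and Sele (-1.38) did not pass and that of Apol9a turned to 1.11.

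**Figure D5:**
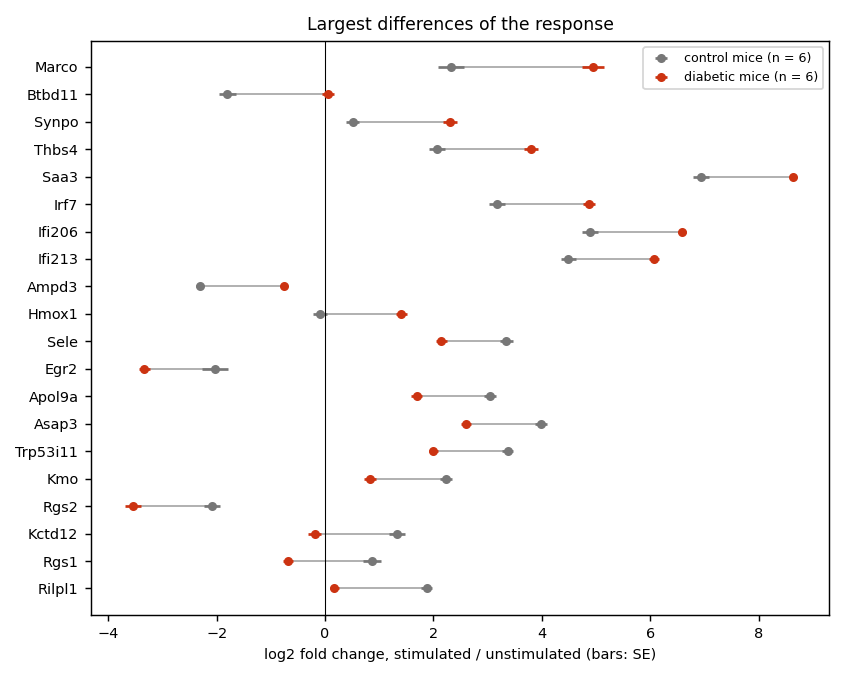
Log2 fold change (stimulated over unstimulated) of the 20 genes whose response differed most between phenotypes, as the mean of 6 diabetic mice (red) and of 6 control mice (grey) with bars for limma's moderated SE. The upper 10 genes, from Marco to Hmox1, had the higher log2 fold change in diabetic mice and the lower 10, from Sele to Rilpl1, the lower one.

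Markers of other cells the cultures could hold were followed as well. Of 8 B-lineage markers Cd79b and Ighm were in the table, at a summed 24.3 to 58.3 CPM without and 2.95 to 5.26 CPM with stimulation, and both fell; Cd79a, Ms4a1 and Pax5 are not analysed here. Of 9 T and NK cell markers 3 were in the table, summing to 4.53 to 8.52 CPM without and 32.1 to 48.7 CPM with stimulation. Lck, which was at 0.302 to 0.444 CPM (median 0.339) in unstimulated and 31.0 to 46.0 CPM (median 40.4) in stimulated libraries, rose, while Cd4 fell (-1.20). Of 10 neutrophil markers 3 were in the table, at 34.3 to 44.2 CPM without and 38.9 to 50.9 CPM with stimulation; S100a8 rose by 3.33 and Mmp8, which made up most of the sum, fell (-0.45). Osteoclast markers, 6 of 8 in the table, summed to 205 to 316 CPM without and 98.1 to 133 CPM with stimulation, with 2 rising and 3 falling, and none of 7 erythroid markers was listed. The part of such cells in the results was not tested.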

How the data were processed

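Bone marrow-derived macrophages of 12 male mice, 6 with streptozotocin-induced diabetes and 6 controls, gave 24 libraries in 4 groups of 6, by phenotype and stimulation. Per the labels' protocols, mirVana-isolated RNA went into TruSeq Stranded mRNA libraries; other label fields give genomic DNA, but the values were read as those of RNA. The submitters' processing notes name STAR 2.5.3a, edgeR 3.16.5, R 3.3.3 and the builds mm10 and GRCm38, while the counting tool and its use of strand are not given in the sources used here. For each gene the authors deposited log2 CPM with a prior of 0.25 reads after their own scaling of each library. Subtracting the floor of -6.67 on the linear scale gave CPM, and 100% of values were whole reads within 0.01 read. Since the unit was log2, no count test was run, although the design allowed for other units.

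The log2(CPM + 1) values of 11710 genes were fitted with limma 3.58.1 in R 4.3.3 (intensity trend, robust empirical Bayes, two-sided, Benjamini-Hochberg threshold 0.05), with the mouse as a block in the 12 diabetic libraries; treat used a log2 threshold of 1. The difference from control cells was fitted on within-mouse changes of 12 mice. The series' design text says that each mouse's sample was split into both cultures, and the replicate number was taken to mark the mouse. As a check of this pairing, a diabetic mouse's deviations from the group means in both states had a correlation of 0.05 on average. It ran from -0.08 to 0.16, with 1 of 6 over 0.1, and control mice had one of 0.19 on average. The stimulated library was closest to the unstimulated one of its own number in 3 of 6 diabetic and 4 of 6 control mice. The check thus gives the pairing of diabetic libraries little support of its own. Libraries of a diabetic group correlated at 0.995 to 0.998, and chi-square per degree of freedom between them was at least 3.13, so none was a repeat. P-values set a change against the spread between these mice, as moderated by limma across genes.

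The genes described and the lists were chosen with earlier results of these data known. Named were the 15 largest rises and falls, up to 6 members with the largest change per list and members that did not pass or went against most of their list, the 10 largest differences each way and the 10 most variable responses; some further members were named after their values were seen, and a few are not reported here. The fit was also run on simulated data in which only a small share of genes changed. That setting cannot show how the calls depend on the scaling. Alternatives were other pseudocounts, filters, scalings, weights, blocks and libraries left out. The floor of 3 reads covers counting error alone, because PCR copies were not told apart by molecular tags. Promoter sequences are those of RefSeq (GRCm38.p6). Other computing used matplotlib 3.10.9, pandas 2.3.3 and numpy 2.4.6 under Python 3.11.15.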

Additional observations from a re-analysis of the deposited data

Results flagged for a closer look

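Among 302 named genes, 9 had 1 mouse whose response lay apart from the other 5, where chance alone flags about 1 in 20. Mouse 3 was lower for Gm42418 (-2.81, others -0.25 to 0.94) and Dhcr7 (-3.84, others -3.56 to -3.41) and higher for Sesn1 (-5.27, others -5.64 to -5.50). Mouse 1 was higher for Efr3b (-4.23, others -4.93 to -4.76) and Hdac5 (-2.60, others -3.02 to -2.88) and lower for Serping1 (2.81, others 3.36 to 3.56). Mouse 2 was lower for Il12rb1 (3.95, others 4.22 to 4.39), mouse 5 higher for Gbp2 (8.69, others 8.35 to 8.45) and mouse 6 higher for Pdxk (-5.00, others -5.21 to -5.13). Each of these keeps its direction in every mouse except Gm42418.

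Among the medians of 46 lists, 5 had such a mouse. They were Toll-like receptors in mouse 1 (0.88, others 0.51 to 0.63), chemokines in mouse 5 (5.14, others 4.81 to 4.93) and, in mouse 4, MHC class I presentation (2.18, others 2.42 to 2.52), arginine and nitric oxide (-0.65, others -0.44 to -0.32) and cytokine receptors (1.52, others 1.40 to 1.44).

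Between phenotypes 3925 responses differed by limma's test of the difference itself. The largest above 0, as diabetic minus control, were Marco (2.62), Btbd11 (1.86), Synpo (1.79), Thbs4 (1.73), Saa3 (1.70), Irf7 (1.69), Ifi206 (1.69), Ifi213 (1.59), Ampd3 (1.56) and Hmox1 (1.50). The largest below 0 were Rilpl1 (-1.71), Rgs1 (-1.55), Kctd12 (-1.51), Rgs2 (-1.46), Kmo (-1.40), Trp53i11 (-1.38), Asap3 (-1.37), Apol9a (-1.35), Egr2 (-1.30) and Sele (-1.20), as log2 differences of the response. The sign does not tell which phenotype responded more. Rgs2 (-3.54) and Egr2 (-3.33) fell in diabetic cells, and by more than in control cells. In diabetic cells Ampd3 changed by -0.76 and Btbd11 by 0.05.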

How the results depend on the processing

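Counts came within 1.5 times the reported value in 205 alternative values and moved further in 10. The exceptions were 2376 rises and, over 2-fold, 1079 rises and 4328 falls with total reads, 1451 falls over 2-fold with a pseudocount of 5 CPM, and the differences between phenotypes within the blocks of columns, 2519 (1473 higher, 1046 lower) and 1959 (1139 higher, 820 lower) from fewer mice. Leaving out 1 mouse gave 10391 to 10489 calls (4033 to 4096 up, 6358 to 6394 down), 3873 to 3922 over 2-fold (1615 to 1635 up, 2255 to 2287 down), 3347 to 4009 differences (2000 to 2380 higher, 1347 to 1630 lower) and 30 lists above 0. Without the replicate block, 10605 genes were called (4127 up, 6478 down), 3965 over 2-fold, and 3747 differences; the block changed no other call named here by over 1.5 times. List medians moved by more than their spread between mice in 173 alternative values and by less in 747. Of the named genes' responses 5981 kept direction and call, 6 lost and 13 gained the call and 34 turned sign; of the differences 493 kept both, 5 lost the call and 1 turned.

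Sign turned with total reads for Atp5b (-0.12), Btbd11 (-0.51), Cox7a2 (-0.094), Cyba (-0.42), Gm15564 (-0.38), Gm42418 (-0.58), Mir6236 (-0.49), Rilpl1 (-0.38), Rpl27 (-0.11), Rps24 (-0.16), Rps9 (-0.35) and Uqcrfs1 (-0.027). It turned with quantile normalization for Atp5b (-0.57), Cyba (-0.81), Gm42418 (-0.46), Ncf1 (-0.058), Rpl10 (0.30) and Rps9 (-0.54), and with median-of-ratios scaling for Kctd12 (0.088) and Lars2 (0.23). Within a block of columns it turned for Btbd11 (-0.23, block 1) and Gm42418 (-0.76, block 2). Without a mouse it turned for Btbd11 (-0.019 to 0.18), Gm15564 (-0.024 without mouse 6 to 0.52 without 3), Gm42418 (-0.13 without 6 to 0.62 without 3), Lars2 (lowest -0.23, 0.23 without 3) and Mir6236 (-0.10 without 6 to 0.44 without 3). On the deposited log2 values the difference of Apol9a turned to 1.11. The cause was not tested. Depth limits genes near 3 reads, 0.0835 to 0.153 CPM.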
